A study of Mus musculus with 15 samples.

Results

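The genes described are 10 of the 17454 genes measured by RNA-seq in erythro-myeloid progenitors (EMPs) of the mouse yolk sac (YS): the cytokines *Il6*, *Tnf* and *Il1b*, the lipopolysaccharide receptor genes *Tlr4*, *Ly96* and *Cd14*, the lipopeptide receptor gene *Tlr2*, the adaptor gene *Myd88*, and *Nfkb1* and *Nfkbia* of the NF-κB system. They were chosen by measured values: *Il6* and *Ly96* drew attention for their levels in Tie2-Ezh2-KO libraries, and the other 8 were added as well-known genes of the same response. The comparison of Tie2-Ezh2-KO with WT is therefore given as a description, with no p, for all 10. Each library was made from EMPs (LIN-SCA1-KIT+CD16/32+CD41+) of an individual YS at E10.5, on a C57BL/6 background. Every embryo, the controls included, had the genotype Ezh2fl/fl, with both alleles of the H3K27 methyltransferase gene *Ezh2* floxed. There were 5 Tie2-Ezh2-KO libraries, in which Tie2-Cre deletes in endothelium and hence in the blood cells that arise from it, and 5 Vav-Ezh2-KO libraries, in which Vav-iCre acts in hematopoietic cells. Controls without Cre came from each cross, with 3 Tie2-Ezh2-WT and 2 Vav-Ezh2-WT libraries, called WT when pooled. The sample labels give 500 cells per library, whereas the study's methods give a smaller number, and the experiments in which the libraries were made are not assigned to libraries.

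Toll-like receptors sense microbial products at the cell surface and in endosomes. For lipopolysaccharide, CD14 hands the ligand to a complex of TLR4 with MD-2, the protein encoded by *Ly96*, and MyD88 links the receptor to kinases that release NF-κB from its inhibitor IκBα, the product of *Nfkbia*. NF-κB then induces *Tnf*, *Il1b*, *Il6* and, as negative feedback, *Nfkbia* itself. In embryos, inflammatory signalling through these routes is known to take part in the emergence of hematopoietic cells from hemogenic endothelium.

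Reads on genes numbered from 10407398 to 41025074 per library, with a median of 16091836. *Ezh2* itself was at 36.9, 39.5 and 30.1 RPKM in Tie2-Ezh2-WT, 42.0 and 41.5 RPKM in Vav-Ezh2-WT, 27.8, 26.2, 24.8, 29.5 and 26.5 RPKM in Tie2-Ezh2-KO and 33.7, 42.4, 37.8, 38.1 and 34.0 RPKM in Vav-Ezh2-KO libraries. All 5 Tie2-Ezh2-KO libraries were below all 5 WT libraries, whereas Vav-Ezh2-KO and WT overlapped. Cre removes the part of *Ezh2* that encodes the SET domain, the catalytic part of the protein, whereas the value of the gene covers all its exons, so it does not measure the deletion and checks the labels only in part.

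Summed markers of EMPs were between 344 and 502 RPKM in the 15 libraries, with *Cd34* the most abundant. The libraries Tie2-Ezh2-WT replicate 4 and Tie2-Ezh2-KO replicate 7 stood apart, with visceral endoderm markers summing to 150 and 220 RPKM, against 1.60 to 10.4 RPKM in the other 13 libraries. *Apoa1* led this list, and *Alb* was at 0 in every library. Among cells that make inflammatory cytokines, macrophage and monocyte markers summed to 74.5 to 172 RPKM, most of it *Lyz2* (62.2 to 149 RPKM). *Cd68* was at 6.75 to 19.0 RPKM and *Csf1r* at 0.447 to 7.56 RPKM, while *Mrc1* and *Timd4* were below 1 RPKM in every library. Of the complement genes, *C1qa* was at 0 in every library, and *C1qb* and *C1qc* were highest in Vav-Ezh2-KO replicate 10, at 2.29 and 2.48 RPKM. Markers of the granulocytic lineage, led by the early granule gene *Mpo*, summed to 807 to 1420 RPKM in Tie2-Ezh2-KO, 1317 to 1753 in Tie2-Ezh2-WT, 1965 to 2130 in Vav-Ezh2-WT and 1368 to 2226 in Vav-Ezh2-KO libraries. Primitive erythroid markers, led by *Hbb-bh1*, summed to 198 to 862 RPKM in Tie2-Ezh2-KO and to 64.2 to 159 RPKM in the other 10 libraries. Mast cell markers summed to 98.3 to 293 RPKM, the most abundant being *Gata2* (40.2 to 96.2 RPKM), which is also among the EMP markers. Endothelial markers were at 127 to 181 (*Egfl7* most abundant, *Cdh5* and *Cldn5* below 1), megakaryocyte markers at 137 to 353 and mesenchymal markers at 0.541 to 2.11 RPKM in sum. In bulk libraries of this kind, fewer cells of a type and less RNA per cell cannot be told apart, and the part of these markers in the values of the 10 genes was not tested.

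In order of their mean RPKM over 15 libraries, a measure per length that allows genes to be compared, the 10 genes ran from *Nfkbia* (91.7), *Myd88* (75.4), *Nfkb1* (20) and *Tnf* (15.1) through *Ly96* (4.77) and *Tlr2* (4.09) to *Il6* (0.867), *Cd14* (0.810), *Tlr4* (0.491) and *Il1b* (0.195). Of the 9 neighbouring pairs in this order, only *Myd88* and *Nfkb1* did not overlap over the 15 libraries. EMPs thus carried much RNA for the adaptor and for the NF-κB inhibitor, and little for the lipopolysaccharide receptors and for interleukins. All 10 genes passed the filter of more than 0.2 RPKM in at least 1 library in both knockout comparisons. Of the low genes, *Il6* was above 0.2 RPKM in 11 libraries, *Tlr4* in 12, *Cd14* in 9 and *Il1b* in 5, and the other 6 genes were above it in all 15.

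*Il6*, the ligand of the IL-6 receptor and gp130, was at 0.619, 3.08 and 0.583 RPKM in Tie2-Ezh2-WT, 1.54 and 0.645 RPKM in Vav-Ezh2-WT, 0.0577, 0.241, 0, 0.377 and 0 RPKM in Tie2-Ezh2-KO, and 0.619, 2.40, 0.109, 2.0 and 0.737 RPKM in Vav-Ezh2-KO libraries. Every Tie2-Ezh2-KO library was below every WT library, while Vav-Ezh2-KO libraries spread over most of the WT range and reached below it in replicate 10. These levels rest on few reads, 16 in the 5 Tie2-Ezh2-KO libraries together, 125 in the 5 WT and 117 in the 5 Vav-Ezh2-KO libraries. For the libraries at 0, a floor of 3 reads corresponds to 0.186 RPKM (replicate 11) and 0.172 RPKM (replicate 17). Their exact Poisson 95% intervals reach 0.229 and 0.211 RPKM, and that of the single read of replicate 7 is 0.00146 to 0.322 RPKM. Such intervals and floors cover counting error only, since reads from amplified cDNA are not independent molecules. The difference in mean log2(RPKM + 0.2) between Tie2-Ezh2-KO and WT was −2.04 (SE 0.45, n = 5 and 5), and −2.07 (SE 0.64) against the 3 Tie2-Ezh2-WT libraries alone. It was −2.14 (SE 0.52) without the pair of libraries with visceral endoderm RNA. Its size depended on how low values were treated, with −0.92 at a pseudocount of 1, −3.08 at 0.05 and −3.23 with limma-voom on recovered reads. In Vav-Ezh2-KO the corresponding values were −0.24 (SE 0.55) against WT and −0.19 (SE 0.73) against Vav-Ezh2-WT, both smaller than their errors.

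*Tnf*, encoding a cytokine that itself activates NF-κB, gave a different pattern. It was at 9.32, 13.7 and 6.18 RPKM in Tie2-Ezh2-WT, 7.49, 8.41, 3.29, 2.97 and 3.65 RPKM in Tie2-Ezh2-KO, 24.7 and 36.6 RPKM in Vav-Ezh2-WT and 31.7, 25.9, 20.1, 17.2 and 15 RPKM in Vav-Ezh2-KO libraries. The libraries of the Vav-iCre cross were the high ones whatever their genotype, and within each cross knockout and control overlapped. Relative to all WT libraries the log2 difference was −1.62 (SE 0.43) in Tie2-Ezh2-KO and 0.51 (SE 0.38) in Vav-Ezh2-KO. Relative to the WT libraries of the same cross it was −0.95 (SE 0.34) and −0.50 (SE 0.39), so the sign in Vav-Ezh2-KO depended on which controls were used. Over all alternatives the *Tnf* difference in Vav-Ezh2-KO ran from −0.50 to 0.83. *Il1b*, the precursor of secreted IL-1β, was listed at 0 in 8 of 15 libraries and reached 0.982 RPKM, from 26 reads, in Vav-Ezh2-WT replicate 6. Its log2 differences were −0.64 (SE 0.49) in Tie2-Ezh2-KO and 0.12 (SE 0.53) in Vav-Ezh2-KO against WT. The former ran from −1.15 to −0.21 over the alternatives and was smallest without Vav-Ezh2-WT replicate 6. An antisense gene, *Il1bos*, overlaps *Il1b*, and the counting is not stated to use strand.

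*Ly96*, whose product MD-2 binds the lipid part of lipopolysaccharide on TLR4, was at 4.78, 5.87 and 6.10 RPKM in Tie2-Ezh2-WT, 3.01 and 3.41 RPKM in Vav-Ezh2-WT, 3.02, 3.58, 1.45, 2.41 and 3.09 RPKM in Tie2-Ezh2-KO, and 6.40, 7.29, 6.89, 7.49 and 6.76 RPKM in Vav-Ezh2-KO libraries, from 13 to 151 reads each. Within the Tie2-Cre cross all knockout libraries were below all controls, and within the Vav-iCre cross all were above. The share of all genes with such gaps within a cross was not counted, and nothing is read from them. The 2 control groups did not overlap either, with means of 5.59 ± 0.707 RPKM (SD, n = 3) and 3.21 ± 0.283 RPKM (SD, n = 2), and the Vav-Ezh2-WT libraries lay inside the range of Tie2-Ezh2-KO. The log2 difference of Tie2-Ezh2-KO was −0.73 (SE 0.28) from all WT and −1.04 (SE 0.24) from Tie2-Ezh2-WT libraries. That of Vav-Ezh2-KO was 0.62 (SE 0.20) from all WT and 1.07 (SE 0.28) from Vav-Ezh2-WT libraries.

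**Figure D1:**
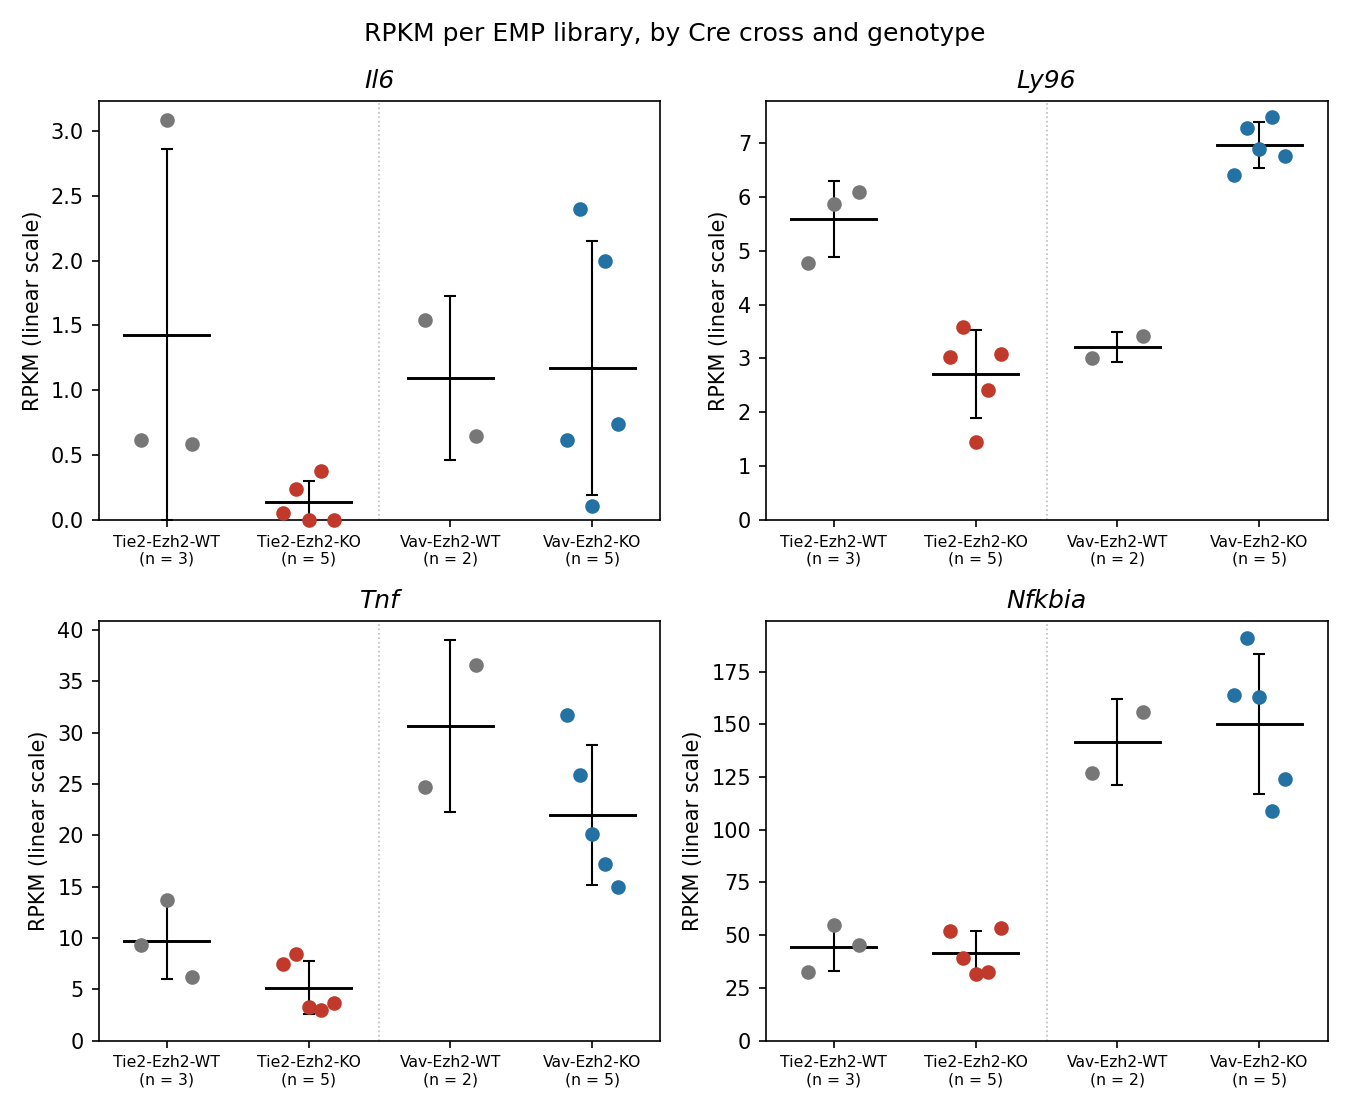
RPKM on a linear scale of *Il6*, *Ly96*, *Tnf* and *Nfkbia* in each of 15 EMP libraries (points), by Cre cross and genotype, with the group mean (line) and SD (bars, drawn down to 0 at most). *Il6* was at most 0.377 RPKM in Tie2-Ezh2-KO, *Ly96* was highest in Vav-Ezh2-KO (6.40 to 7.49 RPKM), and *Tnf* and *Nfkbia* were higher in all 7 libraries of the Vav-iCre cross than in all 8 of the Tie2-Cre cross.

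The signalling receptor of this complex, *Tlr4*, varied from 0.00905 RPKM (1 read, in Vav-Ezh2-KO replicate 28) to 1.13 RPKM (70 reads, in Tie2-Ezh2-KO replicate 17), and these extremes both came from knockouts. Its group means were 0.534 ± 0.325 RPKM in WT, 0.505 ± 0.402 in Tie2-Ezh2-KO and 0.436 ± 0.297 in Vav-Ezh2-KO (SD, n = 5 each), so the groups differed by less than their spread. *Cd14*, the co-receptor that delivers lipopolysaccharide, was at 0.502 ± 0.838 RPKM in WT, 0.910 ± 0.502 in Tie2-Ezh2-KO and 1.02 ± 1.25 in Vav-Ezh2-KO (SD, n = 5 each). The highest *Cd14* value, 3.12 RPKM, was in Vav-Ezh2-KO replicate 9, which also had the highest macrophage and monocyte marker sum (172 RPKM) and the highest *Nfkbia*. *Tlr2*, which pairs with TLR1 or TLR6 to sense lipopeptides, was at 3.24 ± 0.465 RPKM (n = 3) in Tie2-Ezh2-WT, 3.12 ± 0.512 (n = 5) in Tie2-Ezh2-KO, 6.65 ± 2.41 (n = 2) in Vav-Ezh2-WT and, in Vav-Ezh2-KO, 4.55 ± 1.71 (SD, n = 5). Log2 differences from WT were −0.12 (SE 0.43) for *Tlr4*, 1.10 (SE 0.59) for *Cd14* and −0.44 (SE 0.28) for *Tlr2* in Tie2-Ezh2-KO, and −0.25 (SE 0.43), 0.77 (SE 0.72) and 0.02 (SE 0.30) in Vav-Ezh2-KO. In Tie2-Ezh2-KO, *Cd14* was 1.66 without Tie2-Ezh2-WT replicate 10 and 0.40 to 2.52 over all alternatives, *Tlr2* was −0.20 without Vav-Ezh2-WT replicate 6 and −0.05 against Tie2-Ezh2-WT alone, and *Tlr4* was 0.08 against Tie2-Ezh2-WT alone. In Vav-Ezh2-KO, *Cd14* was 1.39 against Vav-Ezh2-WT alone, 0.25 without Vav-Ezh2-KO replicate 9 and up to 1.54 over all alternatives. Unlike *Ly96*, none of these 3 receptor genes separated a knockout from its controls in either cross.

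*Myd88*, the adaptor shared by IL-1 receptors and most Toll-like receptors, was the steadiest of the 10, at 66.6 to 83.8 RPKM in all 15 libraries. Its log2 differences from WT were −0.09 (SE 0.09) in Tie2-Ezh2-KO and −0.04 (SE 0.08) in Vav-Ezh2-KO. Its exons overlap those of *Acaa1a* (17.5 to 33.9 RPKM) on the opposite strand, so some of its reads may be shared.

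*Nfkb1*, encoding the p105 precursor of the NF-κB subunit p50, was at 23.1 ± 2.45 RPKM in WT, 18.1 ± 3.37 in Tie2-Ezh2-KO and 18.9 ± 2.09 in Vav-Ezh2-KO (SD, n = 5 each). All 5 Vav-Ezh2-KO libraries (16.5 to 21.3 RPKM) lay below both Vav-Ezh2-WT libraries (24.3 and 25.9 RPKM) but overlapped Tie2-Ezh2-WT (19.6 to 23.9 RPKM). The share of all genes with such a gap within the Vav-iCre cross was not counted, and nothing is read from it. *Nfkbia* was at 32.6, 54.9 and 45.1 RPKM in Tie2-Ezh2-WT, 52.0, 39.2, 31.5, 32.7 and 53.3 RPKM in Tie2-Ezh2-KO, 127 and 156 RPKM in Vav-Ezh2-WT, and 164, 191, 163, 109 and 124 RPKM in Vav-Ezh2-KO libraries. Within each cross the knockouts overlapped their controls, and the crosses lay far apart. The log2 difference of *Nfkbia* was −0.77 (SE 0.36) in Tie2-Ezh2-KO and 1.08 (SE 0.35) in Vav-Ezh2-KO against all WT, and −0.09 (SE 0.21) and 0.06 (SE 0.24) against the WT libraries of the same cross. Without Vav-Ezh2-WT replicate 6, the value against all WT in Tie2-Ezh2-KO was −0.47, and without the libraries with visceral endoderm RNA it was −1.12 (SE 0.35), and −0.38 (SE 0.23) against Tie2-Ezh2-WT. The large opposite values against pooled WT thus came with controls that mix 2 levels.

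**Figure D2:**
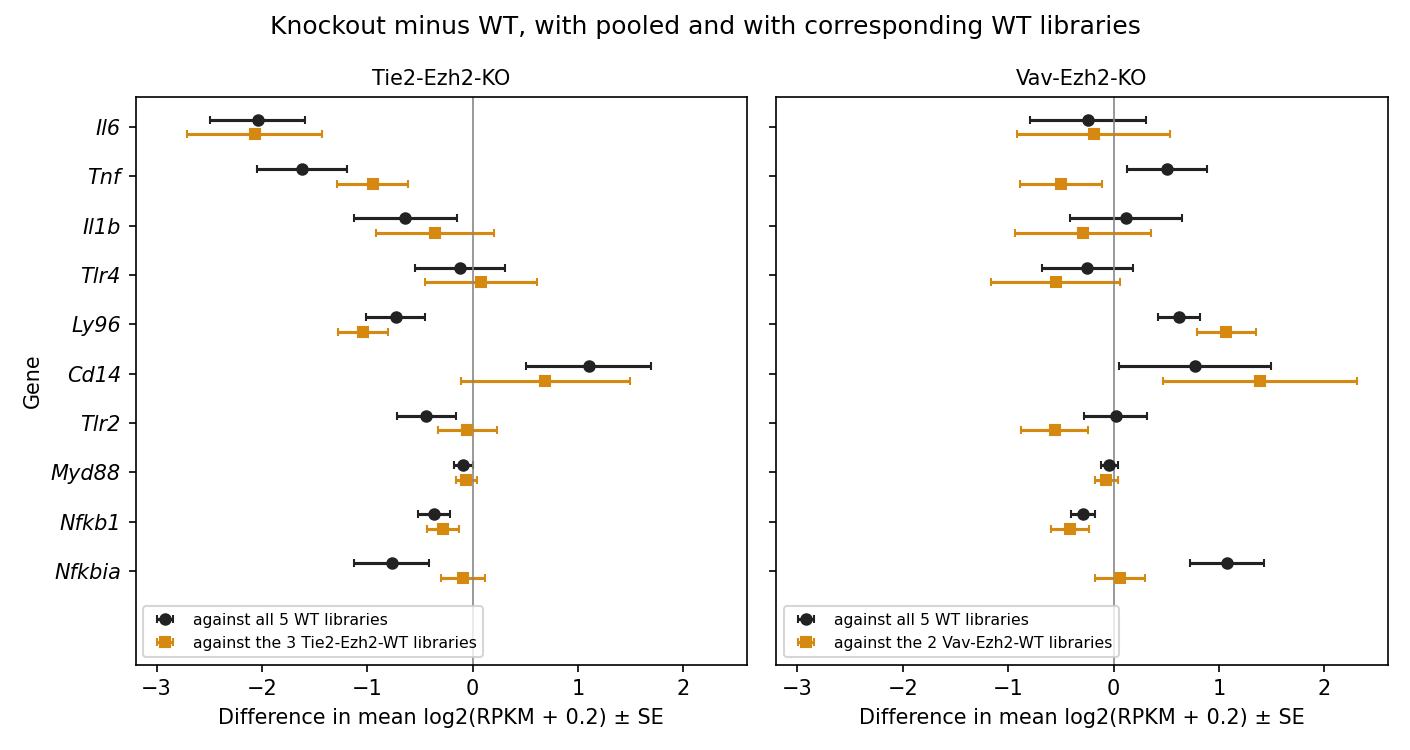
Difference in mean log2(RPKM + 0.2) of each gene (y axis) between knockout and WT (x axis, point ± SE), for Tie2-Ezh2-KO (left) and Vav-Ezh2-KO (right, n = 5 knockouts each). Circles use all 5 WT libraries and squares the WT libraries of the same cross. *Il6* in Tie2-Ezh2-KO was similar with either (−2.04 and −2.07), while *Nfkbia* moved to near 0 (−0.09 and 0.06) and *Tnf* changed sign in Vav-Ezh2-KO (0.51 and −0.50).

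Tie2-Ezh2-KO against WT is the contrast that chose the genes, so its counts are given only beside those of all genes, and nothing is read from them. There, 1 of the 10 genes (*Il6*) was past the threshold of the limma fit, as were 2.73% of 14154 tested genes, and 1 (*Il6* again) had all 5 knockout libraries below all 5 WT libraries, as did 0.714% of tested genes. The Vav-Ezh2-KO libraries took no part in the choice, although the WT libraries did. There, 0 of 10 genes passed the limma threshold, with adjusted p between 0.542 and 0.992, and 0.00733% of 13646 tested genes did. At an unadjusted p under 0.05 there were 3 (*Ly96*, *Nfkb1* and *Nfkbia*), against 7.93% of all genes tested, and limma-voom on recovered reads also passed 0 of 10. The exact permutation test over all divisions of the 10 libraries into 5 and 5 (two-sided, smallest possible p 0.00794) gave 0.00794 for *Ly96*, 0.0317 for *Nfkb1*, 0.0635 for *Nfkbia* and 0.333 to 0.976 for the other 7. The WT libraries had a part in choosing *Ly96*, and the control groups pooled in them did not overlap for it. Nothing is therefore read from its p. *Ly96* was the only gene of the 10 with all 5 Vav-Ezh2-KO libraries above all 5 WT libraries, as were 0.601% of tested genes. Against Vav-Ezh2-WT in the 4-group fit, 0 of 10 passed with limma, and 0.0139% of 14394 genes did. In that fit only *Ly96* and *Nfkb1* of the 10 had an unadjusted p under 0.05, beside 500 of 14394 genes. *Nfkbia*, with a log2 difference of 0.06, did not.

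Whether the effects of the 2 knockouts differ was examined as an interaction, each knockout set against the WT libraries of its own cross. For *Ly96* the difference of effects was −2.11 (SE 0.37) on the log2 scale, and from −2.27 to −1.77 over 19 alternatives. For *Il6* it was −1.88 (SE 0.97). As these values include the Tie2-Ezh2-KO libraries that chose the genes, they are a description, and their tests are not used.

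*Tnf* and *Nfkbia* lay at different levels in the 2 crosses in both genotypes, a comparison made after their values were seen. *Tnf* averaged 24.5 ± 7.77 RPKM (SD, n = 7) in libraries of the Vav-iCre cross and 6.87 ± 3.66 RPKM (SD, n = 8) in those of the Tie2-Cre cross, a log2 difference of 1.91, with 15 RPKM the lowest of the former and 13.7 the highest of the latter. *Nfkbia* averaged 148 ± 28.6 and 42.7 ± 9.95 RPKM, a log2 difference of 1.80, with 109 and 54.9 RPKM as the nearest values. These 2 of the 10 genes had all 7 Vav-iCre libraries above all 8 Tie2-Cre libraries, as did 66 of 14394 genes tested (0.459%), and 0 of the 10 had them all below, as did 23 of 14394. By log2 difference, the leading 5 of those 66 genes were *Cxcl2* (2.0), which encodes a neutrophil-attracting chemokine, *Tnf*, *Nfkbia*, *D10Jhu81e* (1.27) and *Bbc3* (1.13), which encodes the pro-apoptotic protein PUMA. Between the control groups alone, 2 of 14394 genes (0.0139%) passed the limma threshold, among them *Nfkbia*, 1.70 higher on the log2 scale in Vav-Ezh2-WT (SE 0.27, adjusted p = 0.0429, both libraries above all 3). *Nfkbia* passed in 2 of 9 alternatives, with limma adjusted p from 0.0266 to 0.288. As the values of *Nfkbia* prompted this comparison, its p only describes them, and nothing is read from it. The cross and the experiment in which a library was made cannot be told apart here.

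Over the 15 libraries *Tnf* and *Nfkbia* had a Pearson correlation of log2 values of 0.88, which was 0.61 over the 7 libraries of the Vav-iCre cross and 0.40 over the 8 of the Tie2-Cre cross, so much of it came from the gap between crosses. *Il6* and *Ly96* had 0.58 over all 15, 0.75 within the Tie2-Cre cross and −0.03 within the Vav-iCre cross. Among 9886 genes with a mean of at least 1 RPKM, those most like *Il6* over 15 libraries were *Gpr174* (0.82), *Ep400* (0.80), *Olr1* (0.80), *Leprotl1* (0.79) and *Ezh2* (0.79). Within the Tie2-Cre cross alone the value of *Ezh2* was 0.90, and within the Vav-iCre cross 0.42. Among the genes most like *Ly96*, of 9885 compared, were the mast cell protease gene *Cpa3* (0.87), the SLAM receptor gene *Cd48* (0.85), *Mff* (0.83), which acts in mitochondrial fission, and *Gm5069* (0.82). *Cpa3* and *Cd48* reached 0.97 and 0.98 over Tie2-Cre libraries but 0.60 and 0.29 over Vav-iCre libraries, whereas *Mff* was at 0.82 and 0.66. These correlations describe libraries that fall into genotype groups and differ in sequencing depth, and carry no test.

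Around the 10 genes, 7 lists held 110 further genes of the same pathways, of which 106 were in the table. In Tie2-Ezh2-KO against WT, 98 were tested, 1 rose and 1 fell, beside 343 higher and 43 lower among all 14154 genes. The median log2 difference was −0.05 over the lists and 0.01 over all genes, with 38 positive and 60 negative in the lists and 7347 and 6807 over all genes. An unadjusted p under 0.05 was reached by 12 list genes (4 higher, 8 lower), against 11% of all genes (1163 higher, 389 lower). Against Tie2-Ezh2-WT in the 4-group fit these lists had 48 positive and 51 negative differences with a median of 0.00, beside 7541 and 6853 over all genes. At an unadjusted p under 0.05 there were 9 of 99 list genes (6 higher, 3 lower), beside 1425 of 14394 genes (1116 higher, 309 lower). The gene that fell was *Nfkbid*, which encodes the nuclear IκB protein IκBNS. It was at 8.75, 17.3, 9.07, 16.2 and 17 RPKM in WT and 7.62, 4.2, 5.91, 5.55 and 9.12 RPKM in Tie2-Ezh2-KO, 4 of the 5 knockouts being below every WT library. Its log2 difference was −1.04 (SE 0.25, limma adjusted p = 0.0414), and −0.81 (SE 0.30) against Tie2-Ezh2-WT, where 2.03% of 14394 genes passed and it did not. It passed in 10 of 22 alternatives, with limma adjusted p from 0.0148 to 0.327, and was lost on leaving out any of Tie2-Ezh2-WT replicate 10, Vav-Ezh2-WT replicates 4 and 6, and Tie2-Ezh2-KO replicates 7, 9, 11 and 13, where its log2 difference was between −1.11 and −0.90.

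The gene that rose was *Sarm1*, encoding a TIR-domain NADase known mainly from axon degeneration. It was listed at 0 in all 5 WT libraries and was at 0.474, 0.418, 0.209, 0.166 and 0.313 RPKM, from 16 to 39 reads, in Tie2-Ezh2-KO. In this comparison *Sarm1* passed the filter on low values only through the Tie2-Ezh2-KO libraries, where it was high. It was past the threshold with no filter too, but that setting still needed a value above 0, which only Tie2-Ezh2-KO libraries gave. The adjusted p of *Sarm1* is therefore a description, and nothing is read from it. Of the Vav-Ezh2-KO libraries only replicate 9 had *Sarm1*, at 0.221 RPKM. The Tie2-Ezh2-KO mean of 0.316 RPKM was 55.5-fold above a floor of 3 reads over the 5 WT libraries together (0.00569 RPKM). This floor pools their depth and covers counting error only, so the fold is no lower limit. The fitted difference, which depends on the pseudocount, was 1.33 (SE 0.25, limma adjusted p = 0.00928, higher in 5 of 5 knockouts), and it was 0.39 with a pseudocount of 1, 2.79 with 0.05 and 5.80 with limma-voom. It passed in 18 of 21 alternatives, with limma adjusted p from 0.00102 to 0.171, and did not pass in the fit of Tie2-Cre libraries alone or, in both fits tried, without the libraries with visceral endoderm RNA. The difference was 1.33 in the former and 1.22 in the latter 2 fits.

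The 2 genes with the highest mean RPKM in each list did not pass the threshold in either knockout. They included the Toll-like receptor chaperone genes *Hsp90b1* (258 ± 15.3 RPKM in WT, 247 ± 39.9 in Tie2-Ezh2-KO and 231 ± 19.5 in Vav-Ezh2-KO, SD, n = 5 each) and *Cnpy3*, with log2 differences from WT of −0.08 (SE 0.12) and −0.08 (SE 0.14) in Tie2-Ezh2-KO. *Ube2v1* and *Ube2n*, which together build K63-linked ubiquitin chains, gave 0.05 (SE 0.10) and 0.16 (SE 0.11), and the IκBβ gene *Nfkbib* 0.03 (SE 0.10). *Rela*, the p65 subunit of NF-κB, was at 25.4 ± 0.833 RPKM (n = 3) in Tie2-Ezh2-WT, 31.8 ± 0.0383 (n = 2) in Vav-Ezh2-WT, 21.5 ± 4.75 (n = 5) in Tie2-Ezh2-KO and, in Vav-Ezh2-KO, 31.3 ± 2.52 (SD, n = 5). It was the only gene of 99 in the lists with all Vav-iCre libraries above all Tie2-Cre libraries, as were 0.459% of all genes tested. *Stat3*, which carries the IL-6 signal, and the receptor gene *Il11ra1* had differences of −0.27 (SE 0.22) and −0.03 (SE 0.13) in Tie2-Ezh2-KO, and the inflammasome adaptor gene *Pycard* and the pore-former gene *Gsdmd* 0.37 (SE 0.13) and 0.51 (SE 0.27). The TNF receptor adaptor genes *Tradd* and *Traf2* gave 0.06 (SE 0.14) and −0.11 (SE 0.20). *Zfp36*, encoding tristetraprolin, which destabilizes *Tnf* mRNA, was at 173 ± 43.5 RPKM in WT, 105 ± 24.1 in Tie2-Ezh2-KO and 206 ± 45.9 in Vav-Ezh2-KO (SD, n = 5 each). Its difference of −0.72 (SE 0.19) in Tie2-Ezh2-KO missed the limma threshold, and *Elavl1*, a stabilizer of such mRNAs, gave −0.12 (SE 0.09).

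In Vav-Ezh2-KO against WT, 0 of 98 tested list genes passed with limma, 7 had an unadjusted p under 0.05 (3 higher, 4 lower), against 7.93% of all genes, and limma-voom passed 0. The median log2 difference was −0.03 over the lists, with 46 positive and 52 negative, and −0.02 over all 13646 genes, with 6421 and 7225. Against the 2 Vav-Ezh2-WT libraries, the lists had 65 negative and 34 positive differences with a median of −0.13, beside 8078 negative and 6309 positive among 14394 genes with a median of −0.02. There, 9 of 99 list genes had an unadjusted p under 0.05 (2 higher, 7 lower), beside 500 of 14394 genes (257 higher, 243 lower). The interaction passed the limma threshold for 0 of 99 list genes and 0.181% of 14394 genes, with 7 at an unadjusted p under 0.05, against 6.54% of all genes, and its median was 0.06 in the lists and over all genes. No other tool was run on the interaction. The 2 knockout comparisons share the 5 WT libraries.

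On GRCm38.p6 in RefSeq, *Il6* lies at chr5:30013114-30019975, *Ly96* at chr1:16688456-16709605, *Tlr4* at chr4:66827551-66846581, *Tlr2* at chr3:83836272-83841824 and *Nfkb1* at chr3:135584655-135691969. *Myd88* lies at chr9:119335934-119340018, *Il1b* at chr2:129364569-129371164, *Tnf* at chr17:35199367-35202007 and *Nfkbia* at chr12:55489409-55492647. Promoters, from 250 bases before to 50 after the start of a transcript, were at hand for 6 of the 10 genes. In *Tlr2* and *Il1b* that transcript starts inside the gene, and the stretch searched holds only 34 and 225 bases before the start of the gene, with 266 and 75 from it on. The core of the NF-κB motif was searched as GGANNTTCC and, for the other strand, GGAANNTCC. It was found in 4 of these 6 promoters, 2 times in *Nfkbia*, once each in *Il6*, *Tnf* and *Myd88*, and not in *Il1b* or *Tlr2*, and in 4.26% of 32851 RefSeq promoters of the same length (1399). A match is a run of letters and no measured binding. The promoters of *Il6*, and of *Tnf* and *Nfkbia*, which had high levels in the same libraries, are shown with matches in capitals (RefSeq, GRCm38.p6, 5′ to 3′, *Il6* at chr5:30012864-30013163 on the plus strand, *Nfkbia* at chr12:55492598-55492897 on the minus strand and *Tnf* at chr17:35201958-35202257 on the minus strand).
Il6: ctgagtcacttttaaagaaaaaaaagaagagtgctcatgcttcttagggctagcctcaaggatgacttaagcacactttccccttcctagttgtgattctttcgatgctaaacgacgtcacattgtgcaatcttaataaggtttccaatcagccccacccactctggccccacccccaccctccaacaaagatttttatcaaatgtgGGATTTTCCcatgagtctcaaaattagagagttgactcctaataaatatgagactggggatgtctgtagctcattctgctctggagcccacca
Nfkbia: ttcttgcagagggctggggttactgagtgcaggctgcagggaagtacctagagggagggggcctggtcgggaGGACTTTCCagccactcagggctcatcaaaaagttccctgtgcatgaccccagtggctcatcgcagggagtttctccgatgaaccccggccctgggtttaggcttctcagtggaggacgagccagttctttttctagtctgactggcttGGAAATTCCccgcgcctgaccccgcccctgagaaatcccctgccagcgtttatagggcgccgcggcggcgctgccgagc
Tnf: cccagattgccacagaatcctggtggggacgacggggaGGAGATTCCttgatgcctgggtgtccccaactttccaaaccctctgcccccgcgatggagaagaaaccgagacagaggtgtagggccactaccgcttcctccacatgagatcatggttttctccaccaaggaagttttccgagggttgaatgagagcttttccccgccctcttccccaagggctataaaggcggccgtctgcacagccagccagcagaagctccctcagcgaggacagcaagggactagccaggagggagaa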

How the data were processed

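RNA was measured in 15 libraries of sorted E10.5 YS EMPs, from SMARTer-amplified cDNA (16 PCR cycles) and 75 bp single-end reads. The submitters' processing notes name GRCm38/mm10, TopHat2 2.0.13 and featureCounts, and the authors deposited RPKM for 17454 genes on a linear scale. The authors tested their counts with DESeq2, whereas the deposited RPKM values were tested here on the log2(RPKM + 0.2) scale, which understates the change of low genes. limma 3.58.1 (R 4.3.3, lmFit and eBayes with trend) was fitted to every gene that exceeded 0.2 RPKM in any 1 library, with Benjamini-Hochberg adjustment over all genes tested and a threshold of 0.05, after a test on simulated data. The 5 WT libraries served as control for either knockout. The interaction and the comparisons within a cross used all 15 libraries in 4 groups. Summaries were made in Python 3.11.15 (pandas 2.3.3, numpy 2.4.6, scipy 1.17.1).

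Whole reads were recovered from the steps between low RPKM values. All 16877 genes above 0 came out whole within 0.0001 reads in every library. Libraries of a group differed by more than sampling noise, with chi-square per degree of freedom from 16.4 to 133 over 24 pairs, and each counted as 1 replicate. Each library is from a separate YS. 0 sample columns of the table were left unused.

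The 10 genes, the 7 pathway lists and the 9 marker lists were chosen with earlier results of these data known. Of 110 pathway and 75 marker genes, 106 and 70 were matched by symbol. Genes named from the lists were all past the threshold in either knockout comparison, and the 2 per list with the highest mean RPKM. Genes named as most like *Il6* and *Ly96* were from the 5 with the highest Pearson correlation of log2(RPKM + 0.2). A few genes that these rules or lists name are not reported here. Alternatives were other pseudocounts, filters and scalings, the WT libraries of the same cross, all 15 libraries in 1 fit, limma-voom on the recovered reads, and leaving out each library in turn. The 4-group fits of each knockout, leaving out the 2 libraries with over 50 RPKM of visceral endoderm markers, the alternatives for the interaction, and the comparisons between crosses were chosen after seeing the data.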

Additional observations from a re-analysis of the deposited data

Results flagged for a closer look

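In groups of 5 libraries, 111 sets of values were examined for a library far from the other 4, and 7 were found. Chance gives about 1 in 20. *Cd14* was at 1.99 RPKM in Tie2-Ezh2-WT replicate 10, against 0 to 0.321 RPKM in the other WT libraries. *Il1b* was at 0.236 RPKM in Tie2-Ezh2-KO replicate 7 and at 0 in the other 4 libraries of the group. *Sarm1* was at 0.221 RPKM in Vav-Ezh2-KO replicate 9 and at 0 in the others. Visceral endoderm markers summed to 150 RPKM in Tie2-Ezh2-WT replicate 4 and to 220 RPKM in Tie2-Ezh2-KO replicate 7. Megakaryocyte markers summed to 304 RPKM in Tie2-Ezh2-KO replicate 9, against 177 to 186 RPKM in the others of the group. Tie2-Ezh2-KO replicate 13 had 26825709 reads on genes, against 14818723 to 16091836 in the others.

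The effects of the 2 knockouts on *Ly96* differed by −2.11 on the log2 scale, lower in Tie2-Ezh2-KO and higher in Vav-Ezh2-KO than the WT libraries of the same cross. Within each cross, all knockout libraries lay on 1 side of all controls, and these sides were opposite. The share of all genes with such gaps within a cross was not counted, and nothing is read from them. The Tie2-Ezh2-KO libraries had a part in choosing *Ly96*, so no test of the difference is used.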

How the results depend on the processing

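Each knockout comparison was repeated under 22 alternatives, 10 of them leaving out a library, and 3 of the others chosen after seeing the data. The 386 genes called in Tie2-Ezh2-KO became 240 with a mean of at least 1 RPKM, 187 with Tie2-Cre libraries only, 217 without the libraries with visceral endoderm RNA, and 153 with this and 4 groups. The 2 pathway genes called there became 0 with Tie2-Cre libraries only and in 4 groups without the libraries with visceral endoderm RNA. They became 1 with no filter, a mean of at least 1 RPKM (where *Sarm1* was not tested), limma-voom, 4 groups, or without the libraries with visceral endoderm RNA, and 1 to 4 on leaving out a library (4 without Tie2-Ezh2-WT replicate 12). Nothing is read from the counts of the 10 genes there, which stand beside 153 to 493 of all genes over the 22 alternatives. Of the 10 genes, 1 was past the threshold, but 0 with a pseudocount of 1, no filter, a mean of at least 1 RPKM (where *Il6* was not tested), Tie2-Cre libraries only, limma-voom, or without the libraries with visceral endoderm RNA in 2 or 4 groups. With 4 groups it was 1, but not *Il6*, beside 292 of all genes. It was 2 with all 15 libraries in 1 fit, beside 493, and 0 to 2 on leaving out a library, beside 262 to 438 (0 without Vav-Ezh2-WT replicate 4 or Tie2-Ezh2-KO replicate 7, 11 or 17, and 2 without Tie2-Ezh2-WT replicate 12 or Tie2-Ezh2-KO replicate 9). The 1 gene called in Vav-Ezh2-KO became 2 with a common median, Vav-iCre libraries only or 4 groups (also without the libraries with visceral endoderm RNA), 0 with limma-voom, and 1 to 2 on leaving out a library (2 without Tie2-Ezh2-WT replicate 10 or 12 or Vav-Ezh2-WT replicate 4). There, 0 of the 10 genes and 0 pathway genes passed in all 22. In Tie2-Ezh2-KO, *Tlr4* changed sign to 0.08 with Tie2-Ezh2-WT as control (alone or in 4 groups) and to 0.10 in 4 groups without the libraries with visceral endoderm RNA, where *Tlr2* was 0.06. On leaving out a library *Tlr4* ran from −0.39 to 0.15. In Vav-Ezh2-KO, uncalled log2 differences also changed sign. With Vav-Ezh2-WT as control (alone, in 4 groups, or in 4 groups without the libraries with visceral endoderm RNA) they were −0.56 for *Tlr2*, −0.29 for *Il1b* and −0.50 for *Tnf*. Without those libraries in 2 groups they were −0.03 for *Tlr2* and −0.09 for *Il1b*. *Il1b* was −0.01 with a pseudocount of 1, and *Myd88* 0.00 with a common median. On leaving out a library the ranges were −0.56 to 0.21 for *Il6*, −0.15 to 0.25 for *Tlr2*, −0.50 to 0.11 for *Tlr4* and −0.09 to 0.55 for *Il1b*. With limma-voom *Il1b* was 1.22 and *Tlr4* −0.84, and *Tlr4* was −0.55 with Vav-Ezh2-WT as control. The interaction called 8 to 32 genes over 19 alternatives and 0 pathway genes in each. The comparison of control groups called 0 to 8 genes over 9. Genes with all Vav-iCre above all Tie2-Cre libraries numbered 68 to 95 in 3 alternatives, with 2 of the 10 genes in each. The causes were not tested. Depth limits the precision of *Il6*, *Il1b*, *Cd14* and *Tlr4*, with 0 to 86 reads per library. No paired analysis was made, because each library is from a separate YS and the labels assign no libraries to pairs.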
